A study of Mus musculus with 6 samples.

Results

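The kelch-repeat genes were described in the ventricles of mouse hearts on day 1 (P1) and day 14 (P14) after birth. Members were the rows of the gene count table with a symbol made of Klhl, Kbtbd or Klhdc and a number, which gave 48 of 14495 genes. Of these, 46 had enough counts to be tested, and Kbtbd13 and Klhl35 did not. The animals were male C57BL/6 mice with no allele or treatment named. Each age had 3 libraries of poly(A)-selected RNA, and each library pooled 3 hearts, so that 9 hearts were used per age. The protocol describes ventricles with the septum, freed of atria, while the tissue field names the left ventricle. Values are CPM, counts divided by a library total that TMM scaling has adjusted for a few very abundant genes, and tests are edgeR's quasi-likelihood test with Benjamini-Hochberg adjustment over 14301 genes, called under 0.05.

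Kelch repeats fold into a propeller that binds partner proteins. Most Klhl and Kbtbd proteins join this propeller to a BTB domain that docks on the scaffold Cul3, so that each serves as a substrate adaptor of a Cul3 ubiquitin ligase. Several Klhdc proteins instead lead a Cul2 ligase to proteins with certain C-terminal ends, called C-degrons. In striated muscle the family is known for members tied to the sarcomere: mutations of KLHL40, KLHL41 and KBTBD13 cause nemaline myopathy, in which rods of thin filament protein build up in the fibres. The muscle members were taken as Klhl30, Klhl31, Klhl33, Klhl34, Klhl38, Klhl40, Klhl41 and Kbtbd13. This list was drawn from general knowledge, with earlier results of these data known. The table names Klhl40 as Kbtbd5, Klhl41 as Kbtbd10 and Klhl42 as Klhdc5, and the current names are used here. Klhl34 and 7 other symbols of the annotation, Kbtbd6, Kbtbd8, Klhdc7b, Klhl1, Klhl10, Klhl14 and Klhl29, were not analysed here.

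Upstream sequences are shown for the 3 members with a match to the motif of MEF2, a transcription factor family of muscle genes. They let the promoters of Klhl41, which fell, Klhl33, counted as risen, and Kbtbd12, which did not pass, be read side by side. Klhl33 passed the filter only through P14. Each is the 250 bases before the RefSeq start on GRCm38.p6, 5′ to 3′ on the gene's strand, with the MEF2 motif in capitals. The intervals are chr2:69669870-69670119 on the plus strand for Klhl41, chr6:88627430-88627679 on the minus strand for Kbtbd12 and chr14:50897484-50897733 on the minus strand for Klhl33. The Kbtbd12 interval lies inside the gene as annotated in GENCODE M21 (chr6:88545114-88637950), not at its annotated 5′ end.
Klhl41: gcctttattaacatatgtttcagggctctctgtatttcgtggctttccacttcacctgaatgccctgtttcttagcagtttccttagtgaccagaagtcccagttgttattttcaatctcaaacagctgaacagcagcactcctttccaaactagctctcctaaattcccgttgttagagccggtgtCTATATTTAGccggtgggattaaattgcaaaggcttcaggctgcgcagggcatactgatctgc
Kbtbd12: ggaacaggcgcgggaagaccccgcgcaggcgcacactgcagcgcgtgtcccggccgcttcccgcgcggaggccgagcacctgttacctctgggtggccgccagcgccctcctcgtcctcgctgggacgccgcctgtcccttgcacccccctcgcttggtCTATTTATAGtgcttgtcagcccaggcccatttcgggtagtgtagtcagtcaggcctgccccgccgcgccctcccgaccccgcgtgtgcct
Klhl33: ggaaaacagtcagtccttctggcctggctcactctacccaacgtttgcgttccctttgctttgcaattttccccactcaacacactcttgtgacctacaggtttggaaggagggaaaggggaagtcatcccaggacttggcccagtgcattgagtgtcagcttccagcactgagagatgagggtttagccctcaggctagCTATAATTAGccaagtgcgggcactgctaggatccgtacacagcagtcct
The match lies 63 to 54 bases before the start in Klhl41, 91 to 82 bases in Kbtbd12 and 50 to 41 bases in Klhl33. RefSeq windows were found for 41 of the 48 members. Of these windows, 3 (7.32%) held the motif on either strand, against 2.92% of 32851 windows of the same length. Among the other muscle members, Klhl31, Klhl40 and Kbtbd13 had windows without the motif, and no window was found for Klhl30 or Klhl38. The E-box, CANNTG, was in 22 of the 41 (53.7%) against 66.2% of all windows, and the MCAT element, CATTCC, was in 4 (9.76%) against 12.6%. The CArG box, the motif of serum response factor, was in 0 of the 41 against 1.47% of all windows. Motifs were searched on both strands and could overlap one another. These matches describe letters only and were not tested against the counts.

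The libraries held 5916557 to 17353933 counts, with the shallowest at P1, and genes varied between libraries of an age by a biological coefficient of variation of 23%. The 12 cardiomyocyte markers summed to 68730 to 78250 CPM at P1 and 106600 to 125800 CPM at P14, and 7 of the 12 rose while 1, the fetal myosin Myh7, fell. Of 14 skeletal muscle markers 5 had rows, summing to 12 to 19.1 CPM at P1 and 21.3 to 24.8 CPM at P14, and the defining myogenic factors Myod1 and Myog were not among them. Of the 5, Tnni2 rose from 8.09 ± 2.24 to 17.5 ± 0.607 CPM (SD, n = 3) and 4 did not pass. Among those 4, Mylpf and Tnnt3 had lower means at P14, and Atp2a1 and Pvalb higher ones. All 6 proliferation markers fell, from sums of 278 to 318 CPM to sums of 17.8 to 29.2 CPM. Macrophage markers summed to 53.2 to 59.8 CPM at P1 and 161 to 178 CPM at P14, erythroid markers to 466 to 979 CPM and 2688 to 3587 CPM, and endothelial markers to 593 to 681 CPM and 594 to 666 CPM. The part of these shifts in the results below was not tested, and in whole ventricles fewer cells of a type and less RNA per cell cannot be told apart.

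Among the 46 tested members 12 rose from P1 to P14 (26.1%), against 21.8% of all tested genes. A further 9 fell (19.6%), against 22.0% of all tested genes, and 25 did not pass. The share called in either direction was 45.7% for the members and 43.8% for all genes, so the members as a whole stood near the background. The 3 values of one age lay beyond all 3 of the other in 27 of the 46 members, 17 of them higher at P14, which is 58.7% against 54.8% of all genes. By name, 8 of 31 Klhl members rose and 7 fell, 2 of 6 Kbtbd members rose and 0 fell, and 2 of 9 Klhdc members rose and 2 fell. Without P14 replicate 2, 5 members and 2269 of all genes fell, against 9 members and 3149 genes with all libraries. Scaling by library totals alone moved the all-gene median of log2 fold changes from -0.01 to -0.47, and 6 members then rose and 19 fell. Among all genes 1620 rose and 5592 fell with that scaling. Klhl33 and Klhdc7a passed the filter on low counts only through P14, and Klhl3 only through P1. Exons of 14 members overlap a gene on the opposite strand and those of 3 a gene on the same strand, and the part of those genes' reads in the counts was not tested.

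**Figure D1:**
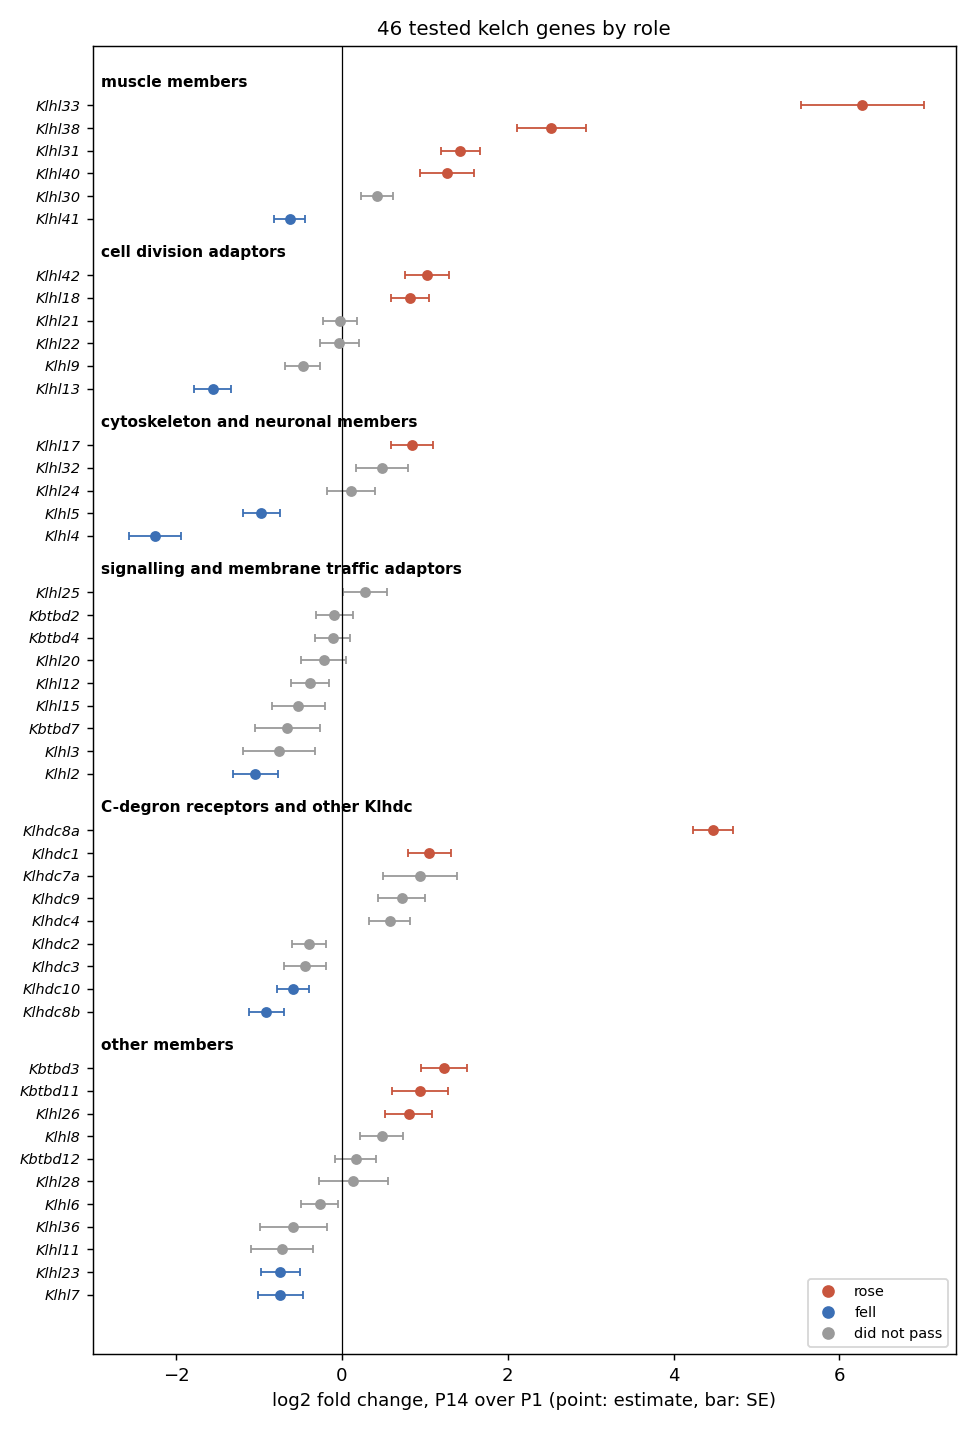
Log2 fold changes of the 46 tested kelch genes, P14 over P1, in 6 role groups, with points for edgeR estimates, bars for SE and colours for the call at an adjusted p under 0.05. Klhdc8a at 4.48 and Klhl33 at the far right stand above the rest, Klhl4 at -2.25 is the lowest, and the estimate of Klhl33 depends on the prior count because P1 held 1 count.

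Most muscle members were higher at P14, with Klhl41 as the exception. Of the 6 tested, Klhl31, Klhl33, Klhl38 and Klhl40 rose, Klhl41 fell and Klhl30 did not pass, against 21.8% risen and 22.0% fallen among all tested genes. In all 6 the libraries of the 2 ages did not overlap, as in 54.8% of all genes. Without Klhl33, which passed the filter only through P14, 3 of 5 rose and 1 fell. Their median log2 fold change was 1.35, or 1.27 without Klhl33, against -0.10 in the 40 other tested members and -0.01 in all genes. No test of the list was made, and the members are not replicates of one another. Scaled by library totals alone, 4 still rose and 1 fell, with a median of 0.88.

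Klhl41, which stabilises nebulin and other thin filament proteins, was the muscle member with the highest level at P1. The gene lies at chr2:69670120-69684230 (GRCm38, GENCODE M21) on the plus strand. Its level was 80.8, 88.3 and 75.8 CPM at P1 and 60.4, 47.0 and 51.0 CPM at P14. Every P14 library was below every P1 library. From 81.6 ± 6.32 CPM (SD, n = 3) it fell to 52.8 ± 6.87 CPM (SD, n = 3), by 0.63 ± 0.19 (SE) on the log2 scale, with an edgeR adjusted p of 0.0149. The call was lost without P14 replicate 2 (adjusted p = 0.088 in edgeR) or P14 replicate 3 (adjusted p = 0.0647 in edgeR). With a correction for GC content and length, added after the data were seen, the log2 fold change was -0.32 and the edgeR adjusted p was 0.0818.

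Klhl40, a close relative of Klhl41, protects nebulin and the actin nucleator leiomodin 3 from degradation. It lies at chr9:121777607-121783818 on the plus strand and was read at 10.0, 3.56 and 7.58 CPM at P1 and at 16.3, 19.3 and 15.5 CPM at P14. All P14 libraries were above all P1 libraries, with P1 replicate 2 the lowest. Klhl40 rose 2.41-fold (log2 fold change 1.27 ± 0.32 SE, edgeR adjusted p = 0.00599). Within each library, and so free of scaling, the level of Klhl40 per kilobase of exon was 0.0407 to 0.126 of that of Klhl41 at P1 and 0.273 to 0.414 of it at P14. By their calls Klhl40 rose and Klhl41 fell, though the call of Klhl41 was lost in some alternatives. The ratio shows a relative change only, was chosen after its values were seen and has no test.

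Klhl31, a Cul3 adaptor needed for normal skeletal muscle, showed the greatest gain in CPM among the muscle members. It lies at chr9:77636500-77660127 on the plus strand. Its level was 32.2, 61.6 and 46 CPM at P1 and 115, 118 and 143 CPM at P14. The lowest P14 library was well above the highest P1 library. Klhl31 rose 2.69-fold (log2 fold change 1.43 ± 0.24 SE, edgeR adjusted p = 2.58e-04). Per kilobase, Klhl31 stood at 0.156 to 0.272 of Klhl41 at P1 and at 0.743 to 1.09 of it at P14. By this measure, which merges the exons of all annotated transcripts, both were of similar level at the later age.

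Klhl38 and Klhl33 are less studied members with expression known mainly from striated muscle. Klhl38, at chr15:58314573-58324169 on the minus strand, was read at 1.30, 1.87 and 5.22 CPM at P1 and at 13.7, 15.4 and 13.3 CPM at P14. The P14 libraries were all higher and close to one another. Klhl38 rose 5.77-fold (log2 fold change 2.53 ± 0.41 SE, edgeR adjusted p = 3.46e-04). Gm15943, on the opposite strand, overlaps its exons, and only 36.6% of the 36-base windows of Klhl38 belong to no other gene. Gm15943 itself rose from 1.78 ± 1.53 to 7.06 ± 1.42 CPM (SD, n = 3; log2 fold change 2.24, edgeR adjusted p = 0.00232), and without strand the reads of the pair cannot be told apart.

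Klhl33, at chr14:50888582-50897507 on the minus strand, had 0, 1 and 0 counts at P1 and 24, 23 and 23 counts at P14. This corresponds to 0, 0.0583 and 0 CPM in the P1 libraries and to 1.69, 3.05 and 2.96 CPM in those of P14. No P1 library held more than 1 count, and the level was low at P14. Pooled over libraries, 70 counts against 1 gave a ratio of 106, with a 95% interval of 18.4 to 4248 that covers counting error only. Klhl33 is counted among the members that rose, but it passed the filter only through P14, so its call supports nothing, and its fitted fold change depends on the prior count.

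Klhl30, at chr1:91351016-91362416 on the plus strand, was the other abundant muscle member. Its level was 66.2, 57.8 and 80.8 CPM at P1 and 93.3, 95.5 and 84.6 CPM at P14. The 2 ages did not overlap, with the nearest libraries 80.8 and 84.6 CPM. The difference did not pass (log2 fold change 0.42 ± 0.19 SE, edgeR adjusted p = 0.0928), and its sign turned, to -0.02, when scaled by library totals alone or corrected for GC content and length. Against Klhl41 in the same library, Klhl30 stood at 0.536 to 0.873 per kilobase at P1 and at 1.27 to 1.66 at P14.

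Kbtbd13, the third gene of the family tied to nemaline myopathy, lies at chr9:65388684-65391652 on the minus strand as a single exon. It was at 0.601, 0.525 and 0.842 CPM at P1 and at 2.32, 2.52 and 0.902 CPM at P14. All P14 libraries were above all P1 libraries, the lowest of them only slightly. The gene did not reach the filter, and without the filter its log2 fold change was 1.64 ± 0.48 (SE) with an edgeR adjusted p of 0.0137. Kbtbd12, whose upstream sequence is shown above, is not on the muscle list. It was at 20.4 ± 5.45 CPM at P1 and 22.9 ± 4.12 CPM at P14 (SD, n = 3) and did not pass (edgeR adjusted p = 0.609).

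**Figure D2:**
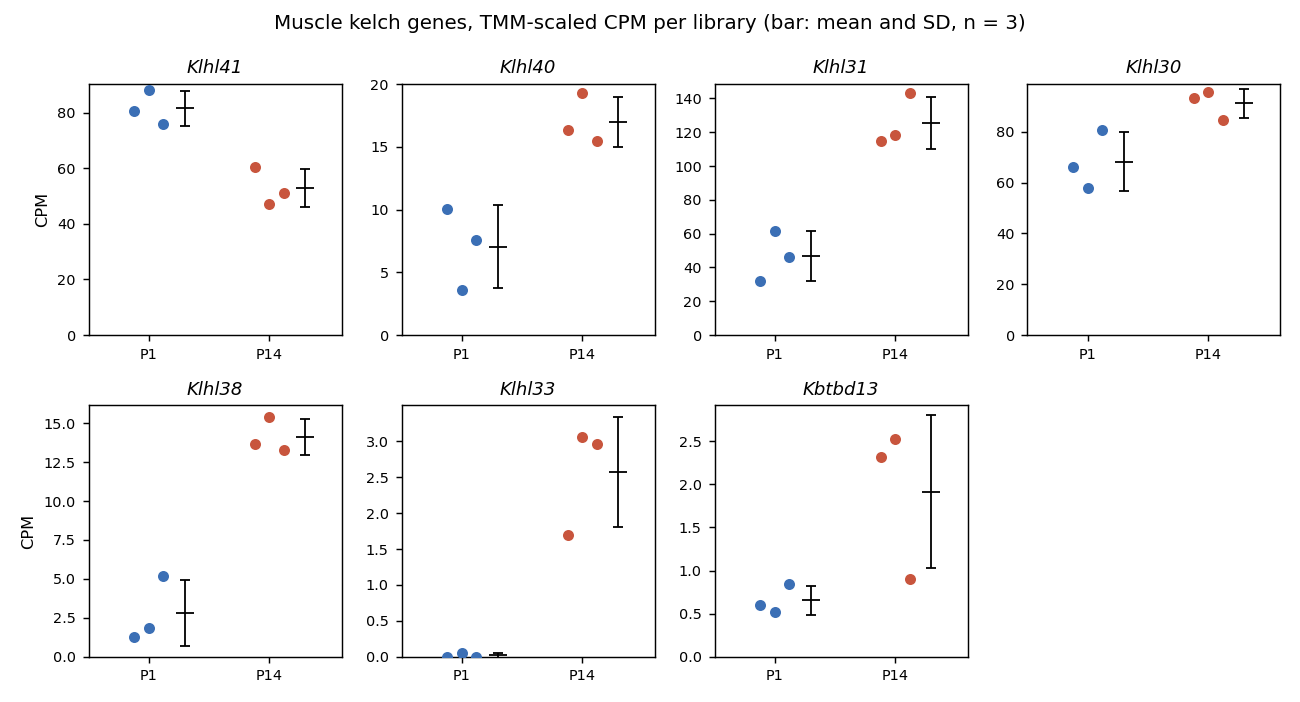
TMM-scaled CPM of the 7 muscle members in each library, 3 at P1 and 3 at P14, on linear axes from 0, with the mean and SD of each age beside the points. Klhl41 is lower at P14 in every library (60.4, 47.0 and 51.0 CPM against 75.8 CPM or more), while Klhl31, Klhl33, Klhl38 and Klhl40 are higher in every library.

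Per kilobase of exon, the muscle members made up a larger part of the family's level at P14. Their share of the summed level of all members with a known length was 20.7%, 22.0% and 20.6% in the P1 libraries and 27.2%, 28.1% and 28.2% in the P14 libraries. The groups did not overlap, at 21.1% ± 0.811 and 27.8% ± 0.522 (SD, n = 3), and no test was made because the members were chosen with results known. The summed level of all members was 298 to 335 CPM per kilobase at P1 and 293 to 314 at P14, and that of the muscle members was 63.1 to 68.9 and 82.6 to 85.6. These sums depend on the scaling: by library totals alone the muscle members' sums overlapped, at 69.1 to 83.9 at P1 and 69.0 to 77.3 at P14, and the family's sums did not, at 336 to 381 and 245 to 284. The shares do not depend on it.

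The order of levels changed below the first place. At P1 the highest members were Klhdc3 at 87.8 ± 28.0 CPM per kilobase, Klhl41 at 32.3 ± 2.50, Klhl30 at 22.1 ± 3.78, Klhdc2 at 19.3 and Klhl23 at 12.4. At P14 they were Klhdc3 at 64.6 ± 12.9, Klhl30 at 29.5 ± 1.86, Klhl41 at 20.9 ± 2.72, Klhl31 at 19.3 ± 2.37, Klhdc2 at 14.7 and Klhdc8a at 13.2 (SD, n = 3). Klhl41 and Klhl31 lay within 1 SD of each other at P14, so their order there is not resolved. Klhl31 had been at 7.18 and Klhdc8a at 0.583 CPM per kilobase at P1.

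**Figure D3:**
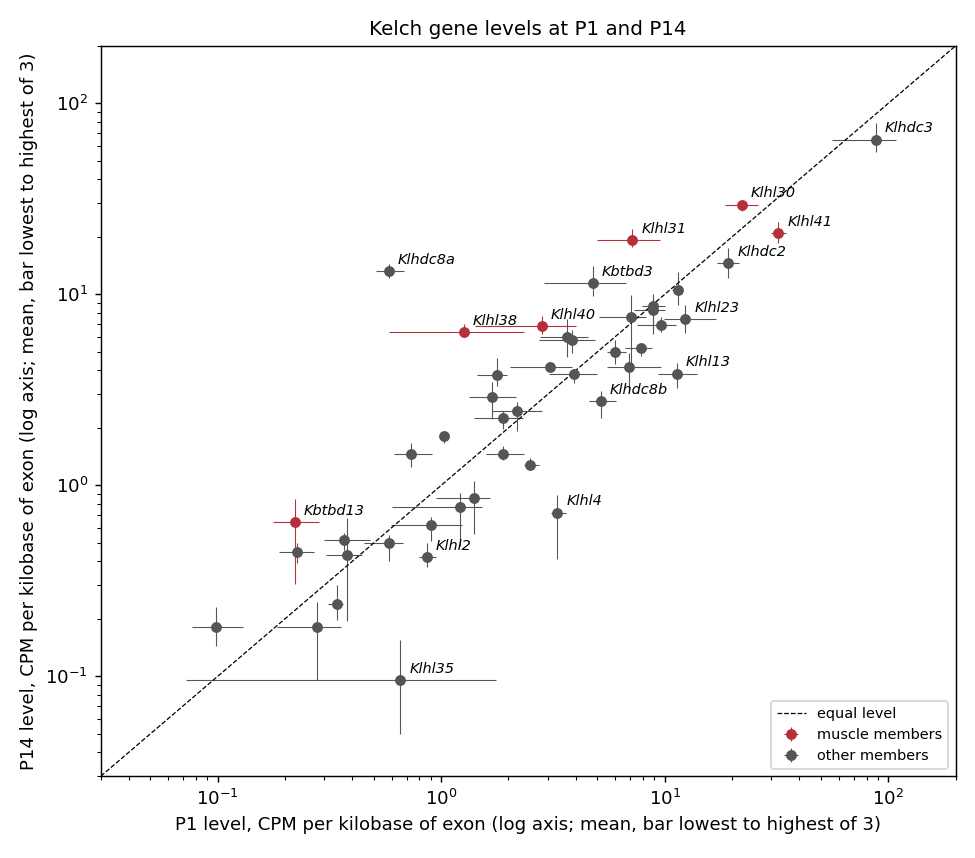
Mean level of each member with a known length in CPM per kilobase of exon at P1 (horizontal) and P14 (vertical), on log axes, with bars from the lowest to the highest of 3 libraries and the dashed line at equal level. Klhl33 is left out because 2 of its P1 libraries are at 0, and among the members above 1 CPM per kilobase at one age Klhdc8a (0.583 to 13.2) lies farthest above the line and Klhl4 (3.31 to 0.721) farthest below it.

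The Klhdc genes held the steepest well-counted change of the family. Of 9 tested, Klhdc8a and Klhdc1 rose, Klhdc8b and Klhdc10 fell and 5 did not pass, which at 44.4% called was near the 43.8% of all tested genes. Their median log2 fold change was 0.58. Klhdc8a, a little-studied kelch protein at chr1:132298626-132307357 on the plus strand, was read at 2.36, 2.92 and 2.19 CPM at P1 and at 61.7, 55.6 and 52.2 CPM at P14. The gap between the ages was many times the spread within either. Klhdc8a rose 22.3-fold (log2 fold change 4.48 ± 0.24 SE, edgeR adjusted p = 2.22e-08). Its paralog Klhdc8b, reported at the midbody of dividing cells and located at chr9:108447636-108461581 on the minus strand, was at 50.9, 41.1 and 38.7 CPM at P1 and at 24.3, 26.3 and 19.1 CPM at P14. Klhdc8b fell, 1.88-fold lower at P14 (edgeR adjusted p = 0.00306), and its exons overlap Ccdc71, on the opposite strand, which did not pass. Per kilobase within a library, Klhdc8a stood at 0.0914 to 0.140 of Klhdc8b at P1 and at 4.17 to 5.4 times its level at P14, a reversal of the order of the paralogs in every library. The ratio was chosen after its values were seen and has no test.

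Klhdc1, Klhdc2, Klhdc3 and Klhdc10 are C-degron receptors of Cul2 ligases. Klhdc1 was at 6.15, 6.12 and 4.55 CPM at P1 and at 10.6, 14.6 and 10.4 CPM at P14. All P14 libraries were above all P1 libraries, and Klhdc1 rose (log2 fold change 1.05 ± 0.26 SE, edgeR adjusted p = 0.00463), a call lost when scaled by library totals alone (0.126). Klhdc10 fell from 66.3 ± 9.43 to 44.2 ± 3.69 CPM (SD, n = 3; edgeR adjusted p = 0.0236), a call lost without P1 replicate 3 (0.0797) or without any 1 of the 3 P14 libraries (0.0567 to 0.072). The abundant Klhdc2 and Klhdc3 did not pass. Klhdc2 was at 105 ± 11.5 CPM at P1 and 79.7 ± 14.6 CPM at P14, beside an antisense neighbour, Nemf, that rose. Klhdc3 was at 228 ± 72.6 CPM at P1 and 167 ± 33.5 CPM at P14 (SD, n = 3; edgeR adjusted p = 0.169), with a log2 fold change of -0.44. It passed without P1 replicate 2 (-0.69, edgeR adjusted p = 0.00515), with the GC and length correction (-0.77, edgeR adjusted p = 0.00114) and by library totals alone (-0.87, edgeR adjusted p = 0.00378). Klhdc4 and Klhdc9 had higher values at P14 in all libraries, with log2 fold changes of 0.58 and 0.72 and edgeR adjusted p of 0.0715 and 0.0508, and passed when replicate numbers entered the fit as a block (0.0303 and 0.0245) or P1 replicate 1 was left out (0.0255 and 0.0273). Klhdc7a was at 0.770 ± 0.213 and 1.42 ± 0.347 CPM (SD, n = 3).

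Among the 6 tested adaptors with roles in cell division, Klhl13 fell, Klhl18 and Klhl42 rose and Klhl9, Klhl21 and Klhl22 did not pass, so that 50% were called against 43.8% of all tested genes. Klhl13, which with Klhl9 moves the kinase Aurora B off mitotic chromosomes, lies at chrX:23219271-23365082 on the minus strand and was read at 39.5, 59.2 and 46.1 CPM at P1 and at 16.7, 13.8 and 18.7 CPM at P14. All P14 libraries were below all P1 libraries. Klhl13 fell, 2.94-fold lower at P14 (log2 fold change -1.56 ± 0.22 SE, edgeR adjusted p = 7.75e-05). Klhl9 was at 40.3 ± 7.91 CPM at P1 and 29.0 ± 2.79 CPM at P14 (SD, n = 3) and did not pass (edgeR adjusted p = 0.0819).

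Klhl18, an adaptor for Aurora A, was at 7.17, 7.58 and 6.90 CPM at P1 and at 13.5, 13.0 and 11.7 CPM at P14. Both ages had a narrow spread, and Klhl18 rose (log2 fold change 0.82 ± 0.23 SE, edgeR adjusted p = 0.0103). Klhl42, which targets the microtubule-severing subunit katanin p60, was at 3.98, 4.31 and 5.89 CPM at P1 and at 8.09, 9.56 and 10.7 CPM at P14 and rose as well (log2 fold change 1.03 ± 0.27 SE, edgeR adjusted p = 0.00694). Both calls were lost when scaled by library totals alone (edgeR adjusted p = 0.347 and 0.142). Klhl21, also an Aurora B adaptor, and Klhl22, which acts on the kinase Plk1, had means of 35.4 ± 4.29 and 34.7 ± 6.07 CPM for Klhl21 and 20.5 ± 5.23 and 20.1 ± 1.82 CPM for Klhl22 (SD, n = 3). With the GC and length correction the log2 fold change of Klhl21 moved from -0.02 to -0.63 and passed (edgeR adjusted p = 0.0236).

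Of the 5 cytoskeletal and neuronal members, Klhl4 and Klhl5 fell, Klhl17 rose and Klhl24 and Klhl32 did not pass (60% called, against 43.8% of all tested genes). Klhl4 was at 11.5, 13.0 and 11.1 CPM at P1 and at 1.48, 3.19 and 3.09 CPM at P14. It was the steepest fall of the family, 4.77-fold lower at P14 (log2 fold change -2.25 ± 0.32 SE, edgeR adjusted p = 6.46e-05). Klhl5, a close relative of Klhl4, was at 16.6, 17 and 19.4 CPM at P1 and at 8.52, 8.63 and 9.79 CPM at P14. Klhl5 fell too (log2 fold change -0.97 ± 0.22 SE, edgeR adjusted p = 0.00282). Klhl17, or actinfilin, an actin-binding adaptor of neurons, was at 11.1, 9.50 and 10.3 CPM at P1 and at 17.3, 24.6 and 13.8 CPM at P14. Klhl17 rose (log2 fold change 0.85 ± 0.25 SE, edgeR adjusted p = 0.0133), a call lost without P14 replicate 2 (0.105) or scaled by library totals alone (0.282). Klhl24, known for the turnover of intermediate filament proteins, was at 72.3 ± 17.8 CPM at P1 and 78.0 ± 29.9 CPM at P14 (SD, n = 3).

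Of 9 tested signalling and membrane traffic adaptors, 0 rose, Klhl2 fell and 8 did not pass (11.1% called, against 43.8% of all tested genes). Their median log2 fold change was -0.38. Klhl2 and Klhl3 target the WNK kinases that control ion transport. Klhl2 was at 7.36, 8.80 and 7.75 CPM at P1 and at 3.45, 3.59 and 4.64 CPM at P14, with no overlap. Klhl2 fell (log2 fold change -1.04 ± 0.27 SE, edgeR adjusted p = 0.00625). Klhl3 was at 2.05 ± 0.647 and 1.32 ± 0.562 CPM (SD, n = 3; edgeR adjusted p = 0.176). Kbtbd2, the adaptor for the regulatory subunit of PI3-kinase, was at 36.1 ± 5.78 and 34.0 ± 8 CPM, and Klhl12, which acts on the vesicle coat protein Sec31, at 21.6 ± 4.53 and 16.6 ± 1.49 CPM (SD, n = 3). Kbtbd4 was at 35.9 ± 1.69 and 33.0 ± 7.05 CPM, with 47.4% of its windows free of other genes because Ptpmt1 and Ndufs3 overlap it. The other 4, Kbtbd7, Klhl15, Klhl20 and Klhl25, had log2 fold changes from -0.66 to 0.27.

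Among the other 11 tested members, 3 rose, 2 fell and 6 did not pass, and the 45.5% called was near the 43.8% of all tested genes. Kbtbd3 was at 11.1, 15.6 and 6.74 CPM at P1 and at 24.4, 32.9 and 23.1 CPM at P14. Kbtbd3 rose in all libraries (log2 fold change 1.23 ± 0.28 SE, edgeR adjusted p = 0.00283). Kbtbd11 was low, at 1.57, 1.92 and 1.35 CPM at P1 and 2.82, 3.59 and 3.22 CPM at P14, and rose (log2 fold change 0.94 ± 0.34 SE, edgeR adjusted p = 0.0354), but the call was lost without P1 replicate 1 (0.1), P1 replicate 3 (0.0876), P14 replicate 2 (0.113) or P14 replicate 3 (0.0845). Klhl26 rose from 5.4 ± 1.36 to 9.29 ± 2.01 CPM (SD, n = 3; edgeR adjusted p = 0.0329), and was lost without P1 replicate 1 (0.0742), P1 replicate 2 (0.0619), P14 replicate 2 (0.0985) or P14 replicate 3 (0.141).

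Klhl7, mutated in a form of retinitis pigmentosa, fell from 27.4 ± 9.32 to 16.6 ± 3.85 CPM (SD, n = 3; edgeR adjusted p = 0.0370). This call was lost without P1 replicate 2 (0.122) or any 1 of the 3 P14 libraries (0.0511 to 0.152). Klhl23 fell from 60.9 ± 19.5 to 36.6 ± 6.43 CPM (SD, n = 3; edgeR adjusted p = 0.0211), a call lost when P1 replicate 2 (0.0533), P14 replicate 1 (0.088) or P14 replicate 2 (0.0778) was left out. Klhl6, known for its role in B cells, was at 15.7 ± 1.62 and 13.0 ± 1.95 CPM and did not pass. Klhl8, Klhl11, Klhl28, Klhl36 and Kbtbd12 also did not pass, with log2 fold changes from -0.72 to 0.48. With the GC and length correction the calls of Kbtbd11 (edgeR adjusted p = 0.145), Klhl7 (0.121), Klhl23 (0.0656) and Klhl26 (0.383) were lost, and Klhl8 (0.0076) and Klhl36 (0.00764) passed. Of the 21 called members, 11 kept their call and direction under every alternative in which they were tested: Kbtbd3, Klhdc8a, Klhdc8b, Klhl2, Klhl4, Klhl5, Klhl13, Klhl31, Klhl33, Klhl38 and Klhl40. Of these, Klhl33 passed the filter only through P14, and only 36.6% of the windows of Klhl38 belong to no other gene. The matching share over all called genes is not given here, so the count has no background.

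**Figure D4:**
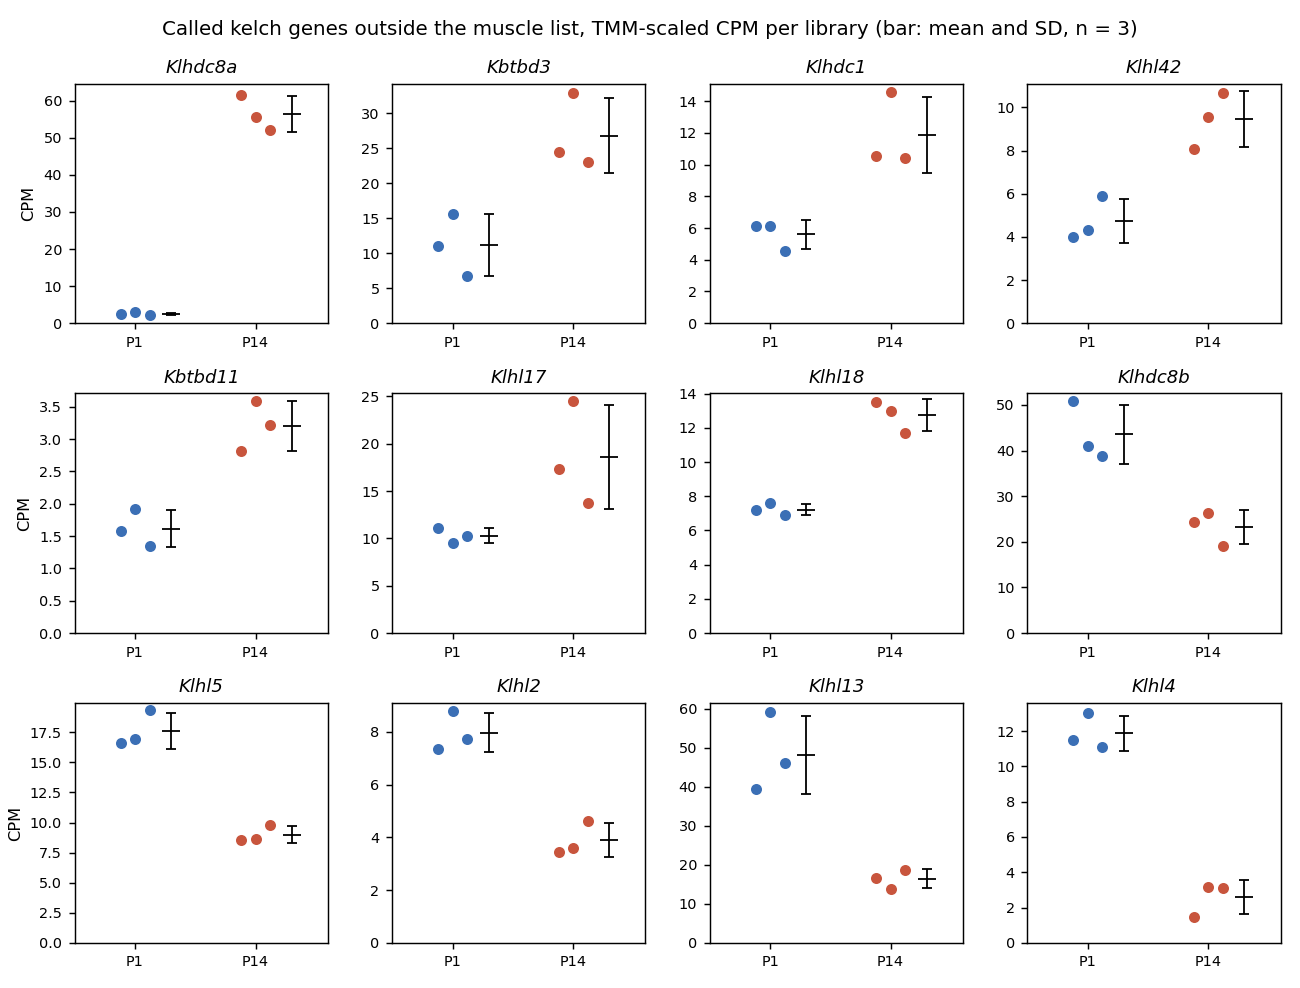
TMM-scaled CPM of 12 called kelch genes outside the muscle list in each library, 3 at P1 and 3 at P14, on linear axes from 0, with the mean and SD of each age beside the points. Klhdc8a moves from 2.19 to 2.92 CPM at P1 to 52.2 to 61.7 CPM at P14. The ages do not overlap in any of the 12, which were picked as called members with the largest changes in these same libraries. Among all tested genes the ages did not overlap in 54.8%.

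Genes of the cullin ligase machinery were examined beside the adaptors. Of 26 genes of the cullin ligase core, which covers the scaffolds, RING subunits, the NEDD8 pathway and the COP9 signalosome, 2 rose, 2 fell and 22 did not pass, which is 15.4% called against 43.8% of all tested genes. The scaffold Cul3 was at 77.9 ± 17.6 CPM at P1 and 74.6 ± 5.03 CPM at P14 (SD, n = 3; log2 fold change -0.06, edgeR adjusted p = 0.824). Dcun1d2, a helper of cullin neddylation, rose from 24.4 ± 4.20 to 48.7 ± 5.61 CPM (SD, n = 3; edgeR adjusted p = 0.00135). Ube2f, a NEDD8-conjugating enzyme, rose from 28.6 ± 1.14 to 44.5 ± 5.93 CPM (SD, n = 3; edgeR adjusted p = 0.0157), a call lost without P14 replicate 1 (0.0532). Ube2m, the other NEDD8-conjugating enzyme on the list, did not pass (edgeR adjusted p = 0.144). Cand1, which exchanges adaptors on cullins, fell from 66.0 ± 10.9 to 38.6 ± 0.476 CPM (SD, n = 3; edgeR adjusted p = 0.00514). Cops2, a signalosome subunit, fell from 91.2 ± 12.6 to 54.7 ± 2.47 CPM (SD, n = 3; edgeR adjusted p = 0.00574). The calls of Dcun1d2 and Ube2f were also lost when scaled by library totals alone, and Cops2 overlaps Galk2 on the opposite strand.

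Of 11 kelch genes with other names, 2 rose, 1 fell and 8 did not pass (27.3% called, against 43.8% of all tested genes). Keap1, the sensor that holds the oxidative stress factor Nrf2 in check, rose from 32.3 ± 6.76 to 54.8 ± 4.40 CPM (SD, n = 3; edgeR adjusted p = 0.00841), with a log2 fold change of 0.77 that was 0.20 after the GC and length correction (edgeR adjusted p = 0.258). Hcfc1, a chromatin cofactor, fell from 75.3 ± 5.51 to 45.4 ± 6.41 CPM (SD, n = 3; edgeR adjusted p = 0.00663). Ivns1abp rose from 433 ± 95.3 to 658 ± 122 CPM (SD, n = 3; edgeR adjusted p = 0.0406), with overlapping ages and a call lost without P1 replicate 1 (0.111), P1 replicate 3 (0.147), P14 replicate 2 (0.179) or P14 replicate 3 (0.105).

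Of 27 reported clients and partners of the family, 7 rose, 8 fell and 12 did not pass (55.6% called, against 43.8% of all tested genes). The calls of Dapk1, Dvl3, Eif4ebp1, Pdcd6 and Pik3r1 were lost when 1 or another single library was left out. Plk1 fell from 16.2 ± 4.92 to 0.922 ± 0.238 CPM (SD, n = 3; log2 fold change -4.05, edgeR adjusted p = 9.54e-07). Aurka and Aurkb, the Aurora kinases handled by the cell division adaptors, fell with log2 fold changes of -3.85 and -2.91 (edgeR adjusted p = 7.74e-06 and 5.14e-05). Thus these kinases fell, while of their 5 adaptors in the cell division group Klhl13 fell, Klhl18 rose and Klhl9, Klhl21 and Klhl22 did not pass. Lmod3, the leiomodin bound by Klhl40, rose from 53.2 ± 9.05 to 125 ± 18.5 CPM (SD, n = 3; edgeR adjusted p = 2.79e-04). Des, the muscle intermediate filament desmin, rose from 1401 ± 569 to 3701 ± 181 CPM (SD, n = 3; edgeR adjusted p = 0.00138). Neb, or nebulin, was low at 2.83 ± 1.39 and 1.66 ± 0.810 CPM and did not pass, and nor did Nrap, at 252 ± 31.1 and 327 ± 24.6 CPM (SD, n = 3). Dvl2, a Wnt pathway protein, rose from 253 ± 18.6 to 1651 ± 222 CPM (SD, n = 3; edgeR adjusted p = 4.05e-07), but it overlaps Acadvl on the opposite strand, which rose from 443 ± 52.2 to 2039 ± 288 CPM, and without strand their reads cannot be told apart.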

How the data were processed

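Counts of poly(A) mRNA were analysed for 6 libraries, 3 at P1 and 3 at P14, each a pool of 3 hearts sequenced for 36 cycles, per the labels' protocols. The authors deposited whole-number counts per gene, of which 14495 rows have a total of at least 60. Per the submitters' processing notes the build was GRCm38 (mm10) and the listed tools were bedtools and edgeR 3.2.4, whose roles are unstated. Not given in the sources used here are the aligner, counting program, annotation and use of strand. Members and lists were chosen with earlier results of these data known.

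Counts were scaled by TMM and filtered with filterByExpr (minimum count 10, about 0.881 CPM), which removed 194 genes. Age was tested with edgeR 4.0.16 (glmQLFit, robust, and glmQLFTest, two-sided) in R 4.3.3. The fit was tested on simulated data. The P1 libraries held 17353933, 13406479 and 5916557 counts and the P14 libraries 15725993, 9104230 and 9295536, so values near 1 CPM rest on few counts. Per-library values are given for muscle members and for the 12 called other members with the largest log2 fold change and a mean of at least 1 CPM at one age; the rest are summarised with examples. Positions, exon lengths and 36-base windows came from GENCODE M21 (98.8% of identifiers matched, Klhl17 not), and upstream sequences from RefSeq (GRCm38.p6). An exon length merges the exons of all annotated transcripts of a gene. Levels per kilobase of different genes therefore depend on which transcripts are expressed, which was not tested. Alternatives were other scalings, filters, DESeq2 1.42.0, limma 3.58.1 voom, a replicate block, leaving out each library, Kbtbd12 as a muscle member and a GC and length correction. The labels do not say what the replicate numbers share; deviations of same-numbered libraries correlated at 0.314, 0.121 and 0.101 over genes, and those of other pairs at -0.234 to 0.108, with P1 replicate 2 and P14 replicate 3 the highest. All same-numbered values were above 0.1, but 0.108 for P1 replicate 2 and P14 replicate 3 exceeded the lowest of them, 0.101. The values therefore do not settle whether the numbers mark pairs. The main fit had age as its only term, and the replicate block was an alternative. No batch is labelled. The counts of P14 replicates 2 and 3 differed least, with a chi-square per degree of freedom of 12.2, against 91.1 to 292 for the other pairs of libraries. This value also grows with depth, and why these libraries were closer was not tested.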

Additional observations from a re-analysis of the deposited data

How the results depend on the processing

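With TMM scaling, 12 members rose and 9 fell, beside 3115 risen and 3149 fallen among all genes. With the replicate block 14 members rose and 9 fell, beside 3561 risen and 3435 fallen among all genes. In that fit no call was lost, Klhdc4 and Klhdc9 were gained, and only Klhl28 turned (log2 fold change -0.003). Scaled by library totals alone, 6 members rose and 19 fell, 1620 of all genes rose and 5592 fell, and the medians were 0.883 for muscle members, -0.562 for the others and -0.472 for all genes; Kbtbd12 (-0.303), Klhl24 (-0.355), Klhl25 (-0.176), Klhl28 (-0.350) and Klhl30 (-0.021) turned below 0, and the cause was not tested. With voom Klhl28 was at -0.081. With the GC and length correction, chosen after seeing the data, 5 members lost their call (Klhl41, Kbtbd11, Klhl7, Klhl23 and Klhl26), 4 gained one (Klhdc3, Klhl8, Klhl21 and Klhl36), 0 muscle members fell, and Kbtbd2 (0.260), Kbtbd4 (0.088), Klhl25 (-0.086), Klhl30 (-0.021) and Klhl6 (0.007) changed sign; with the replicate block added, again 0 fell, and Kbtbd2 (0.237), Kbtbd4 (0.082), Klhl22 (0.003), Klhl25 (-0.081), Klhl30 (-0.007) and Klhl6 (0.009) did. Leaving out 1 library at a time, 9 to 13 members rose and 5 to 11 fell. Among all genes 2387 to 3401 rose and 2269 to 3309 fell in the same fits. There 0 to 1 muscle members fell, and the muscle median was 1.333 to 1.601. Kbtbd13 passed the filter in each of these fits except without P14 replicate 1, so the members counted differ from those of the main fit. The medians without P1 replicate 1 (1.601), P1 replicate 2 (1.513) and P14 replicate 2 (1.433) are each the value of Kbtbd13 itself. Uncalled members crossed 0. Their ranges were -0.002 to 0.411 for Kbtbd12, -0.249 to 0.091 for Kbtbd2 and -0.297 to 0.002 for Kbtbd4. Further ranges were -0.108 to 0.115 for Klhl21, -0.200 to 0.194 for Klhl22, -0.123 to 0.401 for Klhl24 and -0.354 to 0.540 for Klhl28. Depth limits Klhl33, Klhl35 and Kbtbd13, which rest on few counts at 1 or both ages.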

Other observations

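Klhl35 was in the table with 4, 78 and 2 counts at P1 and 3, 3 and 1 counts at P14. This corresponds to 0.185, 4.55 and 0.337 CPM in the P1 libraries and to 0.211, 0.398 and 0.129 CPM in those of P14. Most of its counts came from P1 replicate 2, and the gene did not reach the filter, so it had no test.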
